A study of Mus musculus with 6 samples.

Results

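The scaffolds of the postsynaptic density were followed in RNA-seq of mouse hippocampus through 9 genes, Dlg1, Dlg2, Dlg3, Dlg4, Dlgap1, Shank1, Shank2, Shank3 and Gphn. Members were taken by transcript name, which gave 90 of the 133944 isoforms in the deposited matrix, or 9 of 53354 gene symbols. The gene sums of the genotypes overlapped in all 9 genes, while 12.2% of all genes tested did not overlap. Among isoforms whose shares did not overlap between the genotypes, the largest differences were those of the main Gphn pair. There were 3 N-cre mice, which carry Cre recombinase under the Nestin promoter, and 3 N-cre;Fox1 mice. The latter in addition carry a single copy of an Rbfox1 cDNA behind the CAG promoter at Gt(ROSA)26Sor. A stop cassette flanked by loxP sites separates promoter and cDNA, and its removal by Cre switches the cDNA on. All 6 mice were about 3 months old and on the C57BL/6 strain, the targeted allele came from a 129/sv embryonic stem cell line, and 1 library was made per mouse from hippocampal total RNA. Nestin-driven Cre acts in neural progenitors. Rbfox1 itself did not separate the genotypes as a gene sum, at 15286, 14456 and 14698 normalized counts in N-cre and 15939, 13571 and 15283 in N-cre;Fox1 mice, so this sum does not check the labels.

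A postsynaptic density is a protein sheet under the membrane of an excitatory synapse, in which scaffold proteins hold glutamate receptors next to signalling enzymes and the actin cytoskeleton. The Dlg proteins are membrane-associated guanylate kinases whose PDZ domains bind the tails of receptors and channels, Dlgap1 binds their guanylate kinase domain, and the Shank proteins tie Dlgap proteins to Homer and actin. Gphn encodes gephyrin, which plays the scaffold's part at inhibitory synapses by clustering glycine and GABA-A receptors, and which also makes the molybdenum cofactor. Rbfox1 is an RNA-binding protein known for its part in the choice of neuronal exons, and it binds the motif GCATG.

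The exons that set the main Gphn isoforms apart are shown first, because they carry the comparison that follows. All 3 are coding exons whose length is a multiple of 3, on the plus strand of mm10 chromosome 12, read from the GENCODE M21 transcripts. Gphn-202 holds the 108-nt exon at chr12:78493950-78494057. Gphn-201 lacks it and holds the 57-nt exon at chr12:78522898-78522954 and the 42-nt exon at chr12:78532657-78532698 instead. The sequences are given 5′ to 3′ in lower case, with nothing in capitals because no GCATG was found in them.
Gphn 108-nt exon: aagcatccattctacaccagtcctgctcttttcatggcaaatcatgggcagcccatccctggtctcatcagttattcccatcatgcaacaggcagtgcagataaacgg
Gphn 57-nt exon: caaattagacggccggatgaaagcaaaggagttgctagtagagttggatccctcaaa
Gphn 42-nt exon: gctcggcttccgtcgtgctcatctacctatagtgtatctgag

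Gphn-202 was the larger isoform in every mouse and each of the 3 N-cre;Fox1 mice gave it a lower share of the gene than every N-cre mouse did. A share is the percent of the expected counts of a gene that RSEM gave to an isoform, and it does not depend on library size. Gphn-202 took 68.4%, 64.9% and 64.3% of the Gphn counts in N-cre mice 1 to 3, and 60.0%, 60.0% and 64.0% in N-cre;Fox1 mice 1 to 3. The means were 65.9% ± 2.24 (SD, n = 3) and 61.3% ± 2.32 (SD, n = 3). Gphn-201 took 31.2%, 34.4% and 34.9% in N-cre and 39.3%, 39.3% and 35.4% in N-cre;Fox1 mice, with means of 33.5% ± 2.02 (SD, n = 3) and 38.0% ± 2.24 (SD, n = 3). The genotypes did not overlap for either isoform, but N-cre;Fox1 mouse 3 lay next to the N-cre mice. The gap between that mouse and N-cre mouse 3 in Gphn-201 was within counting error, since the Wilson 95% interval of the N-cre mouse ran from 33.3% to 36.6%. Such intervals, here on 3151 to 4598 Gphn counts per mouse, cover counting error only, because reads without molecular identifiers are not independent molecules. The two-sided exact permutation test gave p = 0.1 for both isoforms, which is the smallest value that 3 against 3 mice allow. No share could thus pass a threshold of 0.05 here. Together the pair took 99.2% to 99.6% of the Gphn counts, so their shares mirror each other and form a single comparison.

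**Figure D1:**
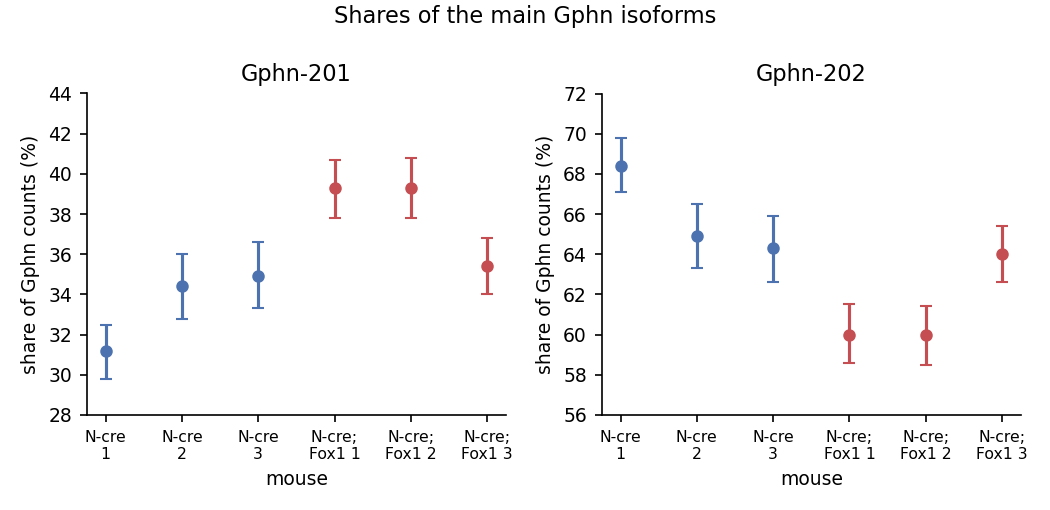
Share of the Gphn expected counts (%) given to Gphn-201 (left) and Gphn-202 (right) in each mouse, N-cre in blue and N-cre;Fox1 in red. Points are single mice and bars are Wilson 95% intervals for counting error, the vertical axes do not start at 0, and N-cre;Fox1 mouse 3, at 35.4% of Gphn-201, lies next to N-cre mouse 3, at 34.9%.

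In normalized counts, Gphn-202 stood at 2707, 2601 and 2647 in N-cre and 2497, 2268 and 2532 in N-cre;Fox1 mice, with a log2 difference of -0.12 (95% interval -0.25 to 0.00). Its adjusted p was 0.99 (edgeR's quasi-likelihood test over all isoforms). Gphn-201 stood at 1233, 1378 and 1438 against 1633, 1485 and 1399, a log2 difference of 0.16 (95% interval -0.05 to 0.36) and the same adjusted p. These counts of Gphn-201 overlapped between the genotypes, unlike its shares. When counts were divided by isoform length, Gphn-201 still did not overlap, but Gphn-202 did, with 62.8% in N-cre mouse 3 and 63.5% in N-cre;Fox1 mouse 3.

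Of 11 lists of cell type markers, 2 had sums that stood apart between the genotypes. Among all genes tested, 12.2% did not overlap and 6.19% had an unadjusted p under 0.05. Astrocyte markers, 5 of 5 tested and 3 with an unadjusted p under 0.05, summed to 1480, 1480 and 1470 counts scaled to library totals (CPM) in N-cre and 1740, 1580 and 1610 CPM in N-cre;Fox1 mice. Markers of CA1 pyramidal cells, 4 of 4 tested and 0 with an unadjusted p under 0.05, summed to 712, 663 and 655 CPM against 649, 595 and 613 CPM. Neither list overlapped between the genotypes, and their part in the Gphn shares was not tested. In bulk tissue, fewer cells of a type and less RNA per cell cannot be told apart.

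The annotation limits what the Gphn shares can say. Gphn-201 has 24 exons and Gphn-202 has 23, of which 20 have the same start and end. Besides the exons shown, Gphn-201 has a first exon that is 274 nt longer and a last exon that is 5 nt longer, so 378 of its bases are outside Gphn-202. No annotated Gphn isoform that spans the sites of these exons lacks all 3 of them. Reads of a transcript without them would therefore be divided between the isoforms that exist in the annotation. The inclusion of the 108-nt exon was 68.7%, 65.4% and 64.8% in N-cre and 60.5%, 60.4% and 64.4% in N-cre;Fox1 mice. That of the 57-nt and 42-nt exons, which come from the same counts, was 31.3%, 34.6% and 35.2% against 39.5%, 39.6% and 35.6%. Inclusion means here the percent of the counts of isoforms that span an exon which fell to isoforms holding it. It restates the isoform shares and is no separate measurement of reads across exon junctions.

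Read as whole genes, the 9 scaffolds had nearly equal counts in both genotypes. Gene sums do not depend on how reads were divided between isoforms, and they are given as counts normalized by TMM. Of the 9 genes edgeR's quasi-likelihood test called 0 after adjustment, where it called 0.0264% of the 18924 genes tested. Before adjustment 0 of the 9 genes were under 0.05, where 6.19% of all genes were. The genotypes overlapped in all 9, while they did not overlap in 12.2% of all genes. Log2 differences, N-cre;Fox1 against N-cre, lay between -0.07 and 0.02 with a median of -0.03, 8 of them below 0, and their 95% intervals together reached from -0.17 to 0.11. Adjusted p-values lay between 0.849 and 0.996.

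All 9 genes are annotated on the plus strand of mm10. The Dlg genes lie on separate chromosomes, with Dlg1 at chr16:31663443-31875129, Dlg2 at chr7:90476672-92449247, Dlg3 at chrX:100767722-100818410 and Dlg4 at chr11:70016942-70047522. Of the Shank genes, Shank1 at chr7:44310253-44360572 and Shank2 at chr7:144001928-144424494 share a chromosome with Dlg2, and Shank3 lies at chr15:89499623-89560261. The remaining genes are Dlgap1 at chr17:69969073-70821413 and Gphn at chr12:78226379-78684772.

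Among the Dlg genes, Dlg4 encodes PSD-95, the most abundant scaffold of the excitatory postsynaptic density. Its sums were 36012, 34775 and 34992 in N-cre and 35742, 31916 and 36006 in N-cre;Fox1 mice, with a log2 difference of -0.03 (95% interval -0.14 to 0.08). N-cre;Fox1 mouse 2 was low, and the other mice of that genotype lay at or above the N-cre median. Dlg1 encodes SAP97, which takes part in receptor transport and is also made in epithelia. It had 5296, 4977 and 4812 counts in N-cre and 4582, 4840 and 4979 in N-cre;Fox1 mice, a log2 difference of -0.07 (95% interval -0.17 to 0.03). Dlg2, which encodes PSD-93, ranged from 16465 to 17165 over the 6 mice, the narrowest relative range of the 9 genes, with a log2 difference of -0.02 (95% interval -0.09 to 0.06).

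Dlg3, which encodes SAP102, a scaffold prominent in early synapses, ranged from 12713 to 13937 counts, with a log2 difference of -0.00 (95% interval -0.09 to 0.08). It lies on chromosome X, and Xist, the RNA of the inactive X chromosome, was high in mouse 1 of each genotype, at 23514 and 22029 counts, against 17.3 to 22.2 in the other 4 mice. Dlg3 was highest in N-cre;Fox1 mouse 1, but N-cre mouse 2 came next, so the order of its counts was not that of Xist.

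Shank2 came nearest to a difference among the excitatory scaffolds. Its sums were 12096, 11537 and 12151 in N-cre and 11770, 11026 and 11383 in N-cre;Fox1 mice, a log2 difference of -0.07 (95% interval -0.15 to 0.02, adjusted p = 0.849, edgeR). N-cre mouse 2 lay below N-cre;Fox1 mouse 1, and when either was left out Shank2 was the 1 gene of the 9 that did not overlap. Shank1 had 34882, 32644 and 34504 counts in N-cre and 34791, 30578 and 34031 in N-cre;Fox1 mice (log2 difference -0.04, 95% interval -0.16 to 0.08). Shank3, the gene lost in Phelan-McDermid syndrome, ranged from 15922 to 17296 counts and was the single gene with a difference above 0, at 0.02 (95% interval -0.08 to 0.11).

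Dlgap1, the adaptor between PSD-95 and Shank, had 30173, 30008 and 28944 counts in N-cre and 31145, 26267 and 29038 in N-cre;Fox1 mice (log2 difference -0.04, 95% interval -0.17 to 0.09). Its highest and lowest mice were both of the N-cre;Fox1 genotype. Gphn ranged from 3780 to 4160 counts (log2 difference -0.02, 95% interval -0.11 to 0.07), and its genotypes overlapped as a sum.

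N-cre;Fox1 mouse 2 had the lowest sum of all 6 mice for 6 of the 9 genes, and the 9 genes together took 0.294% of its counts, against 0.31% to 0.317% in the others. Without this mouse the log2 difference turned to 0.03 for Dlg3 and Dlg4, and to 0.02 for Dlgap1, Shank1 and Gphn. Shank3 turned to -0.01 without N-cre mouse 2 or N-cre;Fox1 mouse 3. The same N-cre;Fox1 mouse 2 had the highest sum of choroid plexus markers, 5030 CPM, followed by N-cre mouse 3 at 2210 CPM, while the other 4 mice lay between 25.5 and 34.1 CPM. The part of choroid plexus in the low sums of this mouse was not tested.

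**Figure D2:**
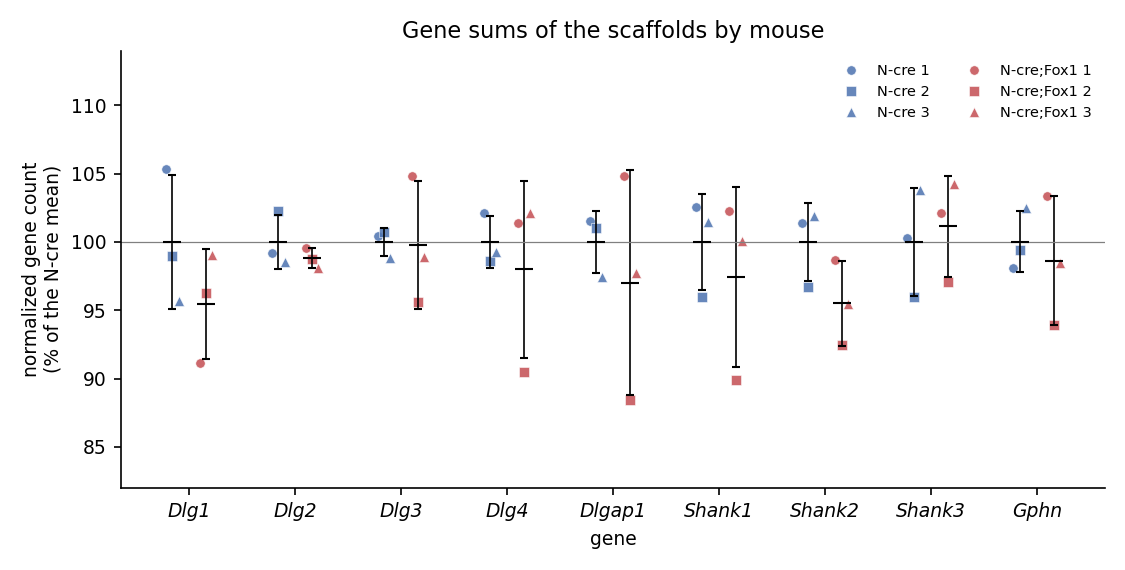
Normalized gene counts of the 9 scaffolds in each mouse, as percent of the mean of the 3 N-cre mice of that gene. Symbols are single mice (N-cre blue, N-cre;Fox1 red), black bars are mean ± SD of 3 mice, the axis does not start at 0, and the genotypes overlap in every gene, with N-cre;Fox1 mouse 2 lowest of all 6 mice in 6 genes.

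Of 50 markers in 11 cell type lists, 0 were called by edgeR, and the summed markers of 9 lists overlapped between the genotypes. The 5 neuronal markers summed to 4320 to 4560 CPM in the N-cre libraries against 4260 to 4450 CPM in the others and were thus present at like levels in every library. Lists with overlap also held markers with an unadjusted p under 0.05 by edgeR. These were 1 each for dentate granule cells, GABAergic interneurons and oligodendrocytes, and 2 for thalamus and striatum. The lists without overlap were those of astrocytes and CA1 cells given above, and their part in the gene sums was not tested.

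Compared per length, the scaffold genes spanned about an order of magnitude in level. Levels are in TPM, transcripts scaled to length and library total, computed from the expected counts and the annotated isoform lengths and averaged over the 6 mice, with the SD over mice. Dlg4 was the highest at 553 ± 19.8 TPM, followed by Dlgap1 at 272 ± 14.4 and Shank1 at 205 ± 9.23 TPM. Dlg3 at 121 ± 2.38, Shank3 at 113 ± 3.99 and Dlg2 at 107 ± 2.38 TPM formed a middle group, and Shank2 followed at 67.9 ± 2.21 TPM. Gphn, at 54.1 ± 1.81, and Dlg1, at 50.2 ± 2.07 TPM, were the lowest. Over the 6 mice, the neighbours Shank3 and Dlg2 overlapped, as did Gphn and Dlg1, and the other neighbours in this order did not.

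**Figure D3:**
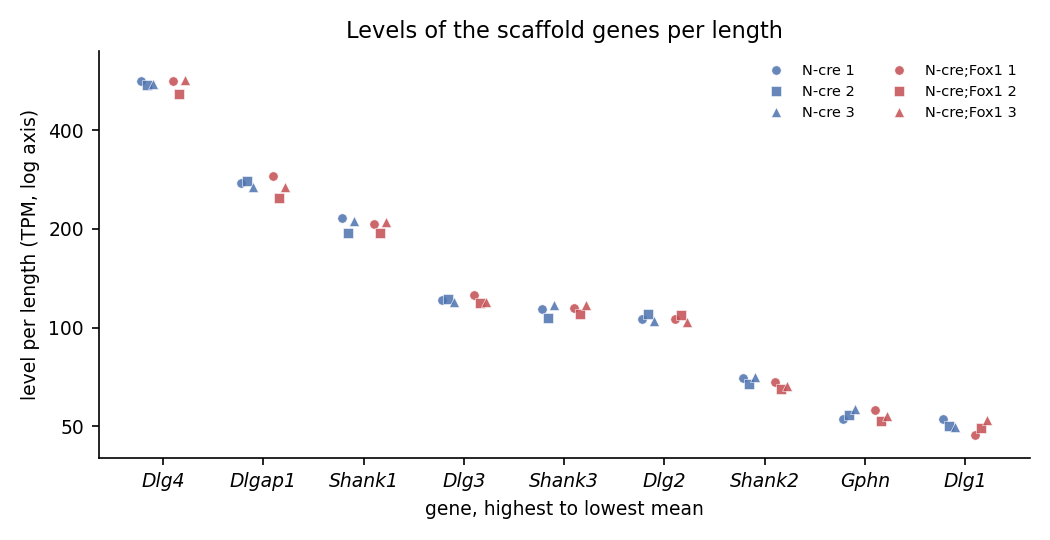
Level of each scaffold gene per length (TPM, log axis) in each mouse, ordered by the mean over the 6 mice. Symbols are single mice (N-cre blue, N-cre;Fox1 red), and the spread within a gene is small beside the range from 553 TPM for Dlg4 to 50.2 TPM for Dlg1.

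Of the 90 scaffold isoforms, 66 passed the filter on low counts, 24 did not, and 4 had a count of 0 in every mouse. After adjustment edgeR called 0 of those tested, as it called 0% of all 50556 isoforms tested. Before adjustment 2 were under 0.05, where 4.78% of all isoforms were. The genotypes did not overlap in 8 of the 66, or 12.1%, beside 11.5% of all isoforms, a share near the background. The N-cre;Fox1 mice had the larger counts in 6 of the 8 and the smaller counts in 2. The isoforms under 0.05 before adjustment were Dlgap1-213 and Dlg4-213, both minor forms of their gene. Dlgap1-213, annotated as a retained intron, had 336, 447 and 333 normalized counts in N-cre and 567, 451 and 544 in N-cre;Fox1 mice, a log2 difference of 0.48 (95% interval 0.10 to 0.86, adjusted p = 0.99, edgeR). Dlg4-213 had 103, 71.2 and 77.1 counts against 110, 151 and 133, a log2 difference of 0.65 (95% interval 0.13 to 1.17, adjusted p = 0.99, edgeR). In both isoforms the nearest mice of the genotypes lay close, at 447 and 451 counts and at 103 and 110 counts.

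Most scaffold genes were carried by few isoforms, and their shares held steady across mice. Dlg2-204 alone took 96.6% to 97.8% of the Dlg2 counts. Shank3-201 took 87.4% to 91.0% of its gene, Shank1-203 took 71.3% to 74.7%, and Dlg4-201 took 70.1% to 73.2% beside 25.4% to 28.2% for Dlg4-203. Dlgap1-211 took 57.1% to 59.9%, with Dlgap1-214 at 17.5% to 18.8% and Dlgap1-210 at 10.5% to 12.5%. Dlg3 was divided between Dlg3-202 at 39.5% to 44.6%, Dlg3-201 at 28.2% to 34.4% and Dlg3-204 at 18.5% to 24.2%. Dlg1 was the most divided, with 34.5% to 45.3% in Dlg1-206 and less than 20% in each of Dlg1-204, Dlg1-201 and Dlg1-202.

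**Figure D4:**
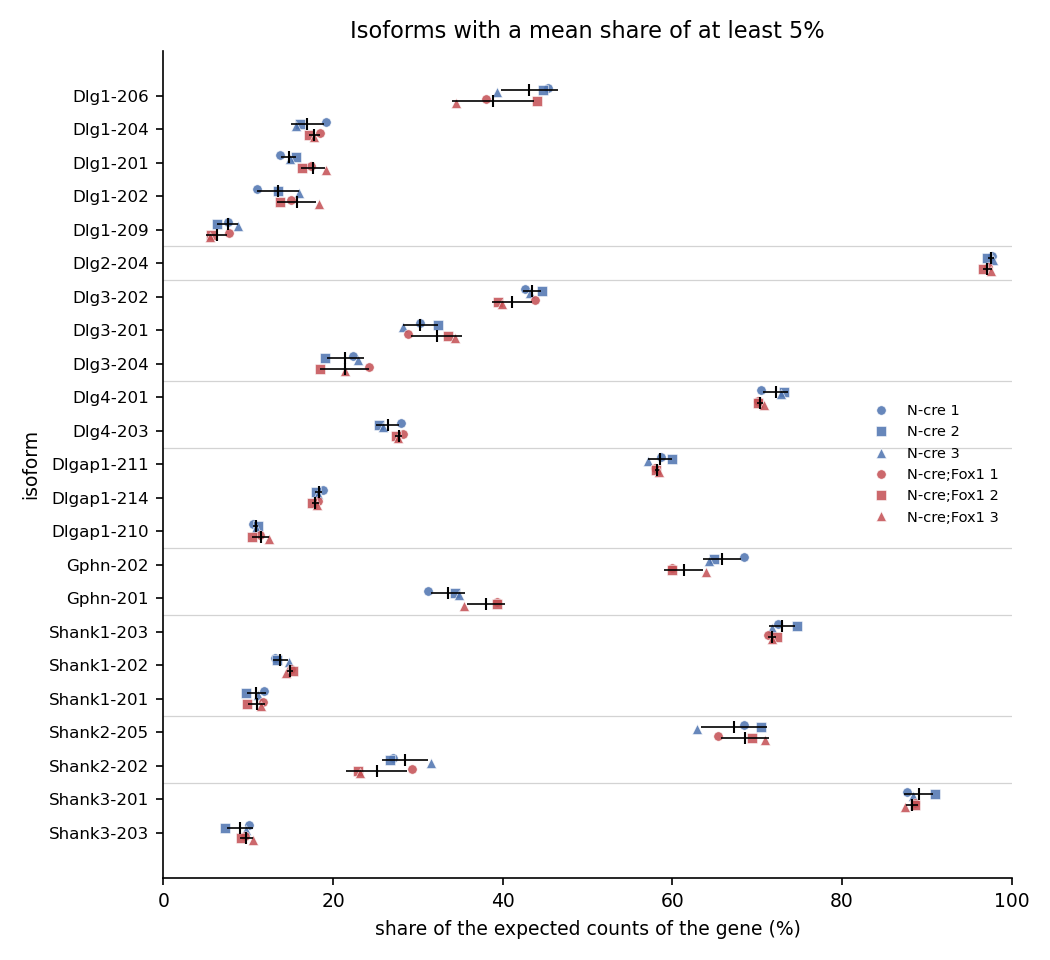
Share of the expected counts of a gene (%) for every scaffold isoform with a mean share of at least 5%, grouped by gene. Symbols are single mice (N-cre blue, N-cre;Fox1 red) and black bars are mean ± SD of 3 mice, with Dlg2-204 above 96% in every mouse and the genotypes apart in Gphn-202, Gphn-201 and Dlg1-201.

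Of the 34 isoforms with a mean share of at least 1%, the genotypes did not overlap in 5, or 14.7%, beside 11.7% over the shares between 1% and 99% of all genes with a mean of at least 1000 counts, so such separation was about as frequent here as elsewhere. Besides the Gphn pair, which forms a single comparison, these were Dlg1-201, Shank2-203 and Dlgap1-213. Dlg1-201 took 13.8%, 15.6% and 14.9% of the Dlg1 counts in N-cre and 17.4%, 16.4% and 19.2% in N-cre;Fox1 mice. Dlgap1-213 took 1.11%, 1.49% and 1.15% against 1.82%, 1.72% and 1.88%. Shank2-203 took 2.80%, 1.80% and 4.01% against 4.04%, 6.39% and 4.12%, so its nearest mice, at 4.01% and 4.04%, hardly differed. Each of these also had an exact permutation p of 0.1, the smallest possible with 3 against 3 mice.

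For Dlgap1 the retained-intron isoforms together followed Dlgap1-213, with 1.75%, 2.20% and 1.74% in N-cre and 2.55%, 2.47% and 2.38% in N-cre;Fox1 mice. For Shank2, Shank2-205 took 62.9% to 70.9% and Shank2-202 took 22.9% to 31.6%, and both overlapped between the genotypes. In the annotation Shank2-203 has 23 exons, Shank2-202 has 16 and Shank2-205 has 11, and their start sites were not compared. Long Shank proteins begin with ankyrin repeats that forms from later start sites lack. Isoforms annotated for nonsense-mediated decay, a pathway that degrades transcripts with an early stop, took 5.72% to 9.24% of Dlg1 and 0.48% to 1.17% of Dlg4.

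Most alternative exons of the scaffolds were short. By the exon rule, which kept internal exons with a mean inclusion of 5% to 95% and at least 100 spanning counts in every mouse, there were 16 exons, of which 15 were coding and 11 had a length that is a multiple of 3. At most 54 nt long were 10 of the 16, beside 6.88% of the 166498 internal coding exons of the annotation. That background holds all such exons, alternative or not, so it does not show whether alternative exons of other genes are as short. The 54-nt limit was not fixed in advance. The motif GCATG, searched on the transcript strand, was in 0 of the 16. Among internal coding exons of the same length it was in 9.7% at 108 nt, 4.55% at 57 nt and 2.18% at 42 nt. On the other strand, read as CATGC, it was in the Gphn 108-nt exon 1 time, as in 11.3% of exons of that length. The introns beside the exons were not searched here.

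The genotypes did not overlap in inclusion for 3 of the 16 exons. These were the 3 Gphn exons, which rest on the same pair of isoforms and so form a single comparison. How often inclusion separated the genotypes over the exons of all genes was not computed. A 21-nt exon of Dlg1, held by a single isoform, was under the kept range. It entered at 6.65%, 7.07% and 6.50% in N-cre and 5.80%, 5.32% and 6.21% in N-cre;Fox1 mice, without overlap, when isoforms with another exon over its site were left out of the denominator, a setting added after the data were seen. With protein-coding isoforms only there were 5 exons without overlap, the others being this Dlg1 exon and a noncoding 109-nt exon of Dlgap1. The Dlgap1 exon was then included at 61.9%, 78.3% and 69.0% in N-cre and 61.5%, 59.8% and 46.2% in N-cre;Fox1 mice, a difference of -13.9 percentage points. Over all isoforms its difference was -6.12 points and its genotypes overlapped. Narrow ranges over the 6 mice were seen for the 27-nt exon of Shank1, at 87.8% to 90.1%, and for a 30-nt exon of Dlgap1, at 21.6% to 22.8%. The value of the 30-nt exon rested on isoforms of the same version, and with isoforms matched by identifier alone, also added after the data were seen, it was 35.2% to 37.0%. Dlg4 had no exon in this set under either way of matching.

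**Figure D5:**
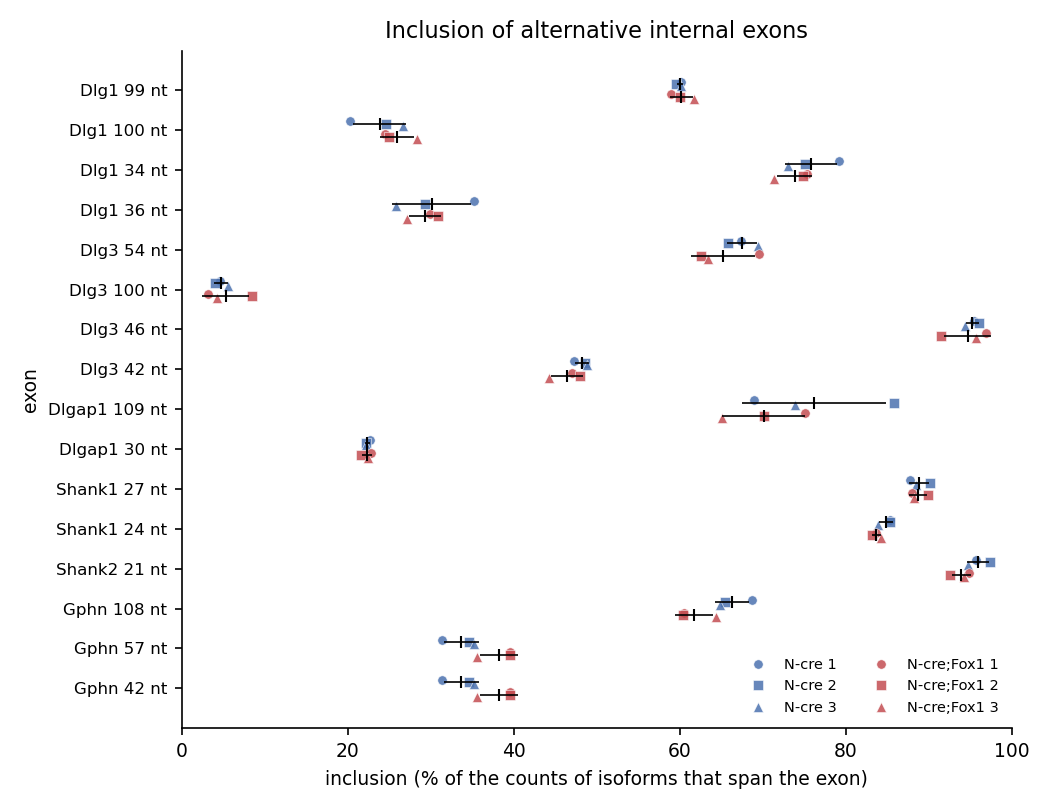
Inclusion (% of the counts of isoforms that span the exon) of the 16 alternative internal exons in each mouse, labelled by gene and length. Symbols are single mice (N-cre blue, N-cre;Fox1 red) and black bars are mean ± SD of 3 mice. The genotypes are apart in the 3 Gphn exons, which rest on the same pair of isoforms.

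A pair of exons that no spanning isoform holds together, with the exact ends given below, recurred in 3 Dlg genes, which used it differently. It lies between the SH3 and guanylate kinase domains, a stretch called the hook region. The long exon has 100 nt in each gene, and the short exon has 34 nt in Dlg1 and 46 nt in Dlg2 and Dlg3. In Dlg1, 2 spanning isoforms have another exon over the site of the long exon and were counted as without it. A 97-nt version of that exon, at chr16:31846837-31846933, is also annotated. For Dlg1 the exact ends therefore do not settle whether both exons can occur together. Every length leaves a remainder of 1 after division by 3, so either exon keeps the same reading frame. The sequences show how alike the long exons are, and the capitals mark bases that a global alignment paired with the same base in the Dlg2 exon, or for Dlg2 in the Dlg1 exon.
Dlg1 100-nt exon, chr16:31846834-31846933, mm10, plus strand: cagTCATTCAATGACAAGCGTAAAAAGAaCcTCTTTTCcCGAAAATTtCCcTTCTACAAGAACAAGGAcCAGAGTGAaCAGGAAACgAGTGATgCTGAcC
Dlg2 100-nt exon, chr7:92417224-92417323, mm10, plus strand: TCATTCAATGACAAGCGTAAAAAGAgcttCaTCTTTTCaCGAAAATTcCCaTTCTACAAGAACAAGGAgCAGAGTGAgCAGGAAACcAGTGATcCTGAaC
Dlg3 100-nt exon, chrX:100808053-100808152, mm10, plus strand: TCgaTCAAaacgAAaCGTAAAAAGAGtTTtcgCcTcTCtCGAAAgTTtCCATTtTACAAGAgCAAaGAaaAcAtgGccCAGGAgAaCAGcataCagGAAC

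The long exon was 84.5% identical between Dlg1 and Dlg2 and 66.0% between Dlg3 and Dlg2. The short exons were compared in the same way, and Dlg2 and Dlg3 were 78.3% identical while Dlg1 and Dlg2 were 57.4% identical over gaps. Capitals mark bases shared with the Dlg2 exon, or for Dlg2 with the Dlg3 exon.
Dlg1 34-nt exon, chr16:31847636-31847669, mm10, plus strand: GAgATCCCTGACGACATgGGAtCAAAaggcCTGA
Dlg2 46-nt exon, chr7:92418088-92418133, mm10, plus strand: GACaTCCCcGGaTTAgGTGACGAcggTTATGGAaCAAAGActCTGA
Dlg3 46-nt exon, chrX:100809862-100809907, mm10, plus strand: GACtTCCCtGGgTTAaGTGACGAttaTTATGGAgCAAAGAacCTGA

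Without Dlg1-206, isoforms with the long exon took 20.3% to 26.6% of the Dlg1 counts spanning the pair in the N-cre mice, against 24.5% to 28.3% in the others. In Dlg3 they took 3.11% to 8.46% over the 6 mice, and in Dlg2 0.341% to 0.615%. The ranges of the 3 genes did not overlap, so the order of long-exon use was Dlg1, Dlg3, Dlg2 in every mouse. It was the same with counts divided by length (16.4% to 23.3%, 4.09% to 11.5% and 0.741% to 2.26%). The place of Dlg3 rests on noncoding isoforms, mainly Dlg3-208, a processed transcript with 1.92% to 6.77% of the Dlg3 counts. The only protein-coding Dlg3 isoform with the long exon, Dlg3-203, took 0.322% to 0.542% of the Dlg3 counts. The genotypes overlapped in each gene. With Dlg1-206, which by its identifier alone is matched to the short exon, inclusion of the Dlg1 long exon stood at 11.1% to 18.5%, lower by over 1.5 times on average but above the range of Dlg3.

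Each Shank gene has a short coding exon, alike in sequence, that most of its counts include. It was included at 83.2% to 85.3% in Shank1, 92.6% to 97.4% in Shank2 and 98.1% to 98.6% in Shank3, with no overlap between the genes over the 6 mice. With counts divided by isoform length these became 71.5% to 74.2% in Shank1, 92.7% to 97.0% in Shank2 and 91.3% to 92.6% in Shank3, so the order of Shank2 and Shank3 depended on this choice while Shank1 stayed the lowest. Without that division the Shank1 values were 85.3%, 85.3% and 83.9% in N-cre and 83.7%, 83.2% and 84.2% in N-cre;Fox1 mice, so the genotypes overlapped. Whether the 3 exons correspond to each other in the genes was not tested. They are printed with capitals for bases that the alignment paired with the same base in the Shank1 exon, or for Shank1 in the Shank3 exon, at 62.5% identity for Shank2 and 64.0% for Shank3.
Shank1 24-nt exon, chr7:44344298-44344321, mm10, plus strand: tCTcCCccTgGaAGAAGAAAAttG
Shank2 21-nt exon, chr7:144398241-144398261, mm10, plus strand: cCTCagtCcGGAAGAAGAAgG
Shank3 24-nt exon, chr15:89538015-89538038, mm10, plus strand: CTtCCatTcGgAGAAGAAAAgggG
The Dlg2 exons and the Shank3 exon were taken up for this likeness after the data were seen.

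Partners of the scaffolds were read from 5 lists of 65 tested genes in all, of which edgeR called 0 after adjustment, and 4 were under 0.05 before it, beside 6.19% of all genes. Of 20 other organizers of the excitatory postsynaptic density, 9 were higher and 11 lower, with a median log2 difference of -0.00. Homer1, which links Shank to metabotropic glutamate receptors and has an activity-induced short form, was the 1 of them under 0.05 before adjustment. It had 5582, 4757 and 4460 counts in N-cre and 5723, 5960 and 6451 in N-cre;Fox1 mice, a log2 difference of 0.29 (95% interval 0.07 to 0.51, adjusted p = 0.769, edgeR). The genotypes did not overlap, and by DESeq2's Wald test it was called, at an adjusted p of 0.0372.

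Of 15 other membrane-associated guanylate kinases and their adaptors, 9 were higher and 6 lower, with a median of 0.02. Tjp1, which encodes the tight junction scaffold ZO-1, had 5328, 5462 and 5341 counts in N-cre and 5980, 6273 and 5959 in N-cre;Fox1 mice. Its log2 difference was 0.18 (95% interval 0.10 to 0.25, adjusted p = 0.35, edgeR). All 3 N-cre;Fox1 mice lay above all 3 N-cre mice, and it was called by DESeq2's Wald test, with an adjusted p of 0.0243, and by edgeR without the filter on low counts, with 0.0242. Lin7a, an adaptor that binds Cask, had a log2 difference of 0.18 (95% interval 0.01 to 0.35, adjusted p = 0.799, edgeR), also with no overlap.

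Of 11 tested organizers of the inhibitory postsynapse around gephyrin, 4 were higher and 7 lower (median -0.02), and of the 7 genes of the molybdenum cofactor pathway 4 were higher and 3 lower (median 0.03), with 0 of either list under 0.05 before adjustment. Insyn1 and Insyn2a were not tested. Of 13 genes of palmitoylation and turnover of PSD-95, 6 were higher and 7 lower (median -0.00). Mdm2, a ubiquitin ligase that acts on PSD-95, had a log2 difference of 0.12 (95% interval 0.02 to 0.23, adjusted p = 0.775, edgeR) with overlap between the genotypes. The astrocyte and CA1 marker sums given above did not overlap either, and their part in these values was not tested.

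By the closeness of their counts over the 6 mice, each scaffold gene was paired with the most alike of 8256 genes. The measure was the root mean square difference of log2 counts centred on their own mean. It was not scaled to a gene's own spread, whose SD ran from 0.0215 for Dlg2 to 0.0848 for Dlgap1. Genes that vary little thus tend to lie closer, and each pair is the best of 8256 over only 6 mice. The nearest pairs were Dlg3 with Rpusd1 at 0.00552, Gphn with Coro1c at 0.0069, Dlg2 with Snx14 at 0.00691 and Dlg4 with Entpd6 at 0.00869. Dlgap1 was paired with Abi1 at 0.00993, Shank1 with Gabbr2 at 0.0102, Shank3 with Snx15 at 0.0108, Shank2 with Pigt at 0.0112 and Dlg1 with Kcnj9 at 0.0149. These values describe only 6 libraries, which differed in depth and in choroid plexus markers, and the part of these differences in the pairs was not tested.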

How the data were processed

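Total RNA libraries of the hippocampus were compared between the genotypes, with 3 mice in each. The authors deposited RSEM 1.3.0 expected counts per GENCODE isoform, with no normalization, and their processing notes list cutadapt 1.18, STAR 2.5.2b and the mm10 build. Depth was 40463587 to 62141336 expected counts per mouse, so the spread between mice rather than counting error limits abundant isoforms.

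The expected counts were rounded, and summed by symbol for genes. In R 4.3.3, edgeR 4.0.16 (filterByExpr at a minimum count of 10 and total of 15, TMM, robust quasi-likelihood test, genotype as the only term) was fitted on all genes or isoforms, with Benjamini-Hochberg adjustment over all tested and a threshold of 0.05. Intervals are 95% from that fit. Shares and exon inclusion were compared by two-sided exact permutation tests in SciPy 1.17.1. Exons, lengths and sequences come from GENCODE M21 (mm10), where 76 of the 90 scaffold isoforms have the same identifier and version. Lengths of the rest were taken by identifier.

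The members and gene lists were chosen with earlier results of these data known. Named were the 9 genes, their isoforms with a mean share of at least 10% (at most 5 a gene), further isoforms with a mean of at least 100 counts, no overlap and p under 0.05, exons without overlap, partner genes with p under 0.05 and the most alike gene of each member. Other isoforms and exons in the text, including the 5 shares without overlap, were named after their values were seen. EBSeq, which the authors used, was not run. Alternatives were DESeq2 1.42.0 size factors and Wald test, limma-voom (limma 3.58.1), upper quartile normalization, other filters, counts not rounded, a replicate block, shares per length or of protein-coding isoforms only, and each mouse left out. The fits were tested on simulated data, where most missed changes were in isoforms with low counts and false calls ran above the nominal rate, most of all for DESeq2 on isoforms.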

Additional observations from a re-analysis of the deposited data

How the results depend on the processing

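Of the 9 scaffold genes and the 23 named isoforms, 0 passed the threshold in any setting, with lowest adjusted p-values of 0.519 and 0.596. The genes called over the whole table numbered 5, but 45 with no filter beyond 1 count, 50 by DESeq2's Wald test and 2 to 29 with a mouse left out, the 29 without N-cre;Fox1 replicate 1. The isoforms called numbered 0, but 10 with no filter beyond 1 count, 6 with at least 10 counts in every mouse, 215 by DESeq2's Wald test and 1 without rounding, and 0 with each mouse left out. Of the partner genes, 1 was called with no filter beyond 1 count (Tjp1) and 2 by DESeq2's Wald test (Tjp1 and Homer1). The cause of these shifts was not tested.

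Scaffold isoforms without overlap numbered 7 of 66 with DESeq2 size factors and 5 with upper quartile normalization. With a mouse left out they numbered 11 to 21, scaffold genes 0 to 1, shares 7 to 10 and exons 3 to 5. Fewer mice overlap less often. The percentage over all features was not computed in these settings, so these counts have no background beside them. Exons without overlap numbered 3, and 5 with protein-coding isoforms only. The log2 differences that changed sign without a mouse were near 0, from -0.04 to 0.03 for Dlg3, -0.06 to 0.03 for Dlg4, -0.10 to 0.02 for Dlgap1, -0.07 to 0.02 for Shank1, -0.01 to 0.05 for Shank3 and -0.05 to 0.02 for Gphn. For isoforms they ran from -0.10 to 0.13 for Dlg1-204, -0.15 to 0.11 for Dlg3-204, -0.03 to 0.15 for Dlgap1-210, -0.12 to 0.01 for Dlgap1-211 and -0.13 to 0.10 for Shank1-201. The Gphn-201 share difference stayed between 3.35 and 5.80 percentage points with each mouse left out.

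Whether the replicate numbers pair the mice could not be settled from 3 mice per genotype. Mice with the same number had correlations of 0.37, -0.08 and -0.19 in their deviations from the group means. The highest value, 0.42, was between N-cre mouse 3 and N-cre;Fox1 mouse 2. These mice also had the highest choroid plexus marker sums, at 2210 and 5030 CPM, and the mice numbered 1 were those with high Xist. With the replicate block edgeR called 5 genes and 0 isoforms, and the lowest adjusted p of a scaffold gene was 0.884.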
